A study of Mus musculus with 16 samples.

Results

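Paraxial mesoderm and presomitic mesoderm were examined as 2 cell type labels, kept apart, in chimeric mouse embryos made with *Stat3* null cells. The members were the cells to which the authors' mapping on an atlas of mouse gastrulation gave either label, which passed the authors' quality filter and were not called doublets. There were 366 paraxial and 305 presomitic cells, 671 of the 37841 cells analysed (1.77%). Both labels come from expression, so levels that set one label apart from other cells are given as a description, with no test. Tests of a label's own identity genes between genotypes or stages cover only cells with the label. They cannot show a loss of identity.

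The embryos were made by injecting embryonic stem cells (ESCs) of the CD1 strain into wild-type (WT) CD1 blastocysts. In the ESCs a Neomycin resistance cassette replaced exons of *Stat3*, which encodes a transcription factor activated by cytokine receptors of the LIF family. They also carried an H2B-tdTomato reporter. Cells of embryos of 3 stages, E7.5, E8.5 and E9.5 in days of embryonic development, were separated by the reporter into a tdTomato-positive fraction (*Stat3* null) and a tdTomato-negative fraction of the host (WT). Droplet sequencing of 3′ RNA ends followed, in which a unique molecular identifier (UMI) marks each captured transcript. The ESC lines were picked as colonies, and how many lines were injected is not given in the sources used here. Host cells developed in the same chimeras. Each genotype was represented by 2 libraries at E7.5, by 2 at E8.5 and by 4 at E9.5. The labels describe pooled embryos at E7.5 and E8.5 and a single embryo for each E9.5 pool, while the methods of the study name fewer E9.5 embryos than there are pools. E9.5 libraries of a genotype, the tested A and D included, may therefore share an embryo, and p-values measure the spread between libraries, which may be in part technical. Letters (A to D) name the libraries of a group and pair nothing across groups.

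In the embryo, presomitic mesoderm is the unsegmented tissue beside the tail end of the neural tube. Mesoderm leaves the primitive streak and tail bud under Wnt and FGF signalling, and the T-box factor *Tbx6* and the bHLH factor *Msgn1* commit it to a paraxial fate. A Notch-driven oscillation read out by *Hes7* and *Lfng*, and opposing gradients of FGF and retinoic acid, then set the boundary at which *Mesp2* starts a somite, after which *Tcf15* and *Meox1* mark paraxial tissue that is turning epithelial. Collinear activation of the Hox clusters gives each level its position along the body axis.

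Shown first are the promoters of *Tbx6* and *Msgn1*, which commit cells to the paraxial fate, of the clock gene *Hes7*, and of *Grb10*, the gene that differed most between genotypes. The sequences are RefSeq promoters on build GRCm38.p6, from 250 bases before to 50 bases after an annotated start, written 5′ to 3′ on the strand of the gene. Motifs searched on both strands were the RBPJ motif GTGGGAA through which Notch acts, the TCF/LEF motif CTTTGAT of Wnt signalling, the T-box motif TCACACCT and the STAT motif TTCNNNGAA. Capitals mark the matches. Of 32851 promoters of this length, 6.38% held the RBPJ motif, 3.73% the TCF/LEF motif, 1.28% the T-box motif and 8.30% the STAT motif. A match is a string of letters and not a binding site. The *Msgn1* promoter, chr12:11208899-11209198 on the minus strand, held the reverse complement of the TCF/LEF motif at positions -203 to -197 from the start and that of the RBPJ motif at -114 to -108. The *Hes7* promoter, chr11:69120203-69120502 on the plus strand, held the reverse complement of the RBPJ motif at -180 to -174. The *Tbx6* promoter, chr7:126781233-126781532 on the plus strand, and the upstream *Grb10* promoter, chr11:12037371-12037670 on the minus strand, held none of the 4 motifs.
Tbx6: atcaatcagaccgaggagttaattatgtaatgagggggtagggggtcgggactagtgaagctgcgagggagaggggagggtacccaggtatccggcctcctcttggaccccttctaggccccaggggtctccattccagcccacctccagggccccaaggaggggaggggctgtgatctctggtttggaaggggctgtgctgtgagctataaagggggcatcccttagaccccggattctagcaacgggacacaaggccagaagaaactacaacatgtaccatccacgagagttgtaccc
Msgn1: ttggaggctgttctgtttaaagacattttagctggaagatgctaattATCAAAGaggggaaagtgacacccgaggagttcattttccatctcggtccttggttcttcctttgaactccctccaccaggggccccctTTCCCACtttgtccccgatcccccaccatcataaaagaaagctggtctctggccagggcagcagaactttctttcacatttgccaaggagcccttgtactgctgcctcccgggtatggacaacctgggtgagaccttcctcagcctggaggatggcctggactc
Hes7: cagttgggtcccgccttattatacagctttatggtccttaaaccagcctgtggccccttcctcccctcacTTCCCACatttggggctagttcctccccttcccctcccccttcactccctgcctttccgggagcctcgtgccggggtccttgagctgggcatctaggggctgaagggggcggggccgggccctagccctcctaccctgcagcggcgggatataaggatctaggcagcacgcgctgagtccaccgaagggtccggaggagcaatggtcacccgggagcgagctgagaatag
Grb10: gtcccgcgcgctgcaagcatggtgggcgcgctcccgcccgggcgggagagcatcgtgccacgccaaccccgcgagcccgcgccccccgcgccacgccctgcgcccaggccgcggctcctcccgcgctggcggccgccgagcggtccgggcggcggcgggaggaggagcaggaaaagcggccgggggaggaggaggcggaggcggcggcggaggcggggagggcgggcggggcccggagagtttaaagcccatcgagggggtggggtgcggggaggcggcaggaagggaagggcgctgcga

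*Stat3* itself, on chromosome 11 from 100885098 to 100939540 (GRCm38), was the check of the labels. Over whole libraries its level was 1.16 to 2.53 CPM (counts scaled to 1000000 UMIs in all) in the null libraries and 6.14 to 9.31 CPM in the WT libraries, so the groups did not overlap. In the members it was sparse. Paraxial cells at E7.5 held 6 *Stat3* UMIs in null (0.676 CPM) and 18 in WT (4.19 CPM). Presomitic cells held 1 UMI in null (0.930 CPM) and 10 in WT (5.12 CPM) at E8.5, and 5 in null (1.48 CPM) and 13 in WT (4.32 CPM) at E9.5. The 3′ tags that were counted can lie downstream of the replaced exons, so the level does not show the deletion by itself.

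Null library B at E8.5 stood apart from the other null libraries in *Grb10* but not in *H19*. Its whole-library level of *Grb10*, the gene that separated the genotypes most in the members, was 262 CPM, against 4.88 to 22.4 CPM in the other null libraries and 193 to 373 CPM in WT. Its whole-library level of the imprinted gene *H19* was 22.6 CPM, within the 14.3 to 246 CPM of the other null libraries and below the 427 to 733 CPM of WT. Null B held only 4 presomitic and 6 paraxial cells, so it entered the counts of cells and no test of expression. A tdTomato UMI was found in 3 of its 4 presomitic and 2 of its 6 paraxial cells, against 37 of the 40 presomitic cells of null A at E8.5. The sex-linked transcripts also differed between libraries. At E9.5 WT B and C had whole-library *Xist* levels of 622 and 625 CPM and *Ddx3y* levels of 0 and 0.0379 CPM, while WT A and D had *Xist* at 0.114 and 0.323 CPM and *Ddx3y* at 38.8 and 40.2 CPM. In the null libraries of E9.5 *Ddx3y* stood between 29.8 and 34.2 CPM, and *Xist* was at 0.0866 and 0.174 CPM in A and D but at 28.9 and 13.96 CPM in B and C. At E8.5 WT B held both transcripts (*Xist* 116 CPM, *Ddx3y* 21.8 CPM), as did the WT libraries of E7.5, while WT A had *Xist* at 0.0844 CPM. The part of sex was not tested in any comparison that includes these libraries, which are those at E7.5, those over 8 libraries at E9.5, and the stage, E8.5 and averaged fits, which use E8.5 WT B.

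Paraxial mesoderm was an E7.5 population and presomitic mesoderm one of E8.5 and E9.5. Paraxial cells at E7.5 numbered 177 and 24 in the null libraries A and B (8.15% and 6.67% of the library) and 31 and 96 in WT A and B (4.29% and 5.38%). Both null libraries lay above both WT libraries, with means of 7.41% ± 1.05 (SD, n = 2) and 4.84% ± 0.775 (SD, n = 2). The exact two-sided permutation p was 0.333, the smallest that 2 against 2 libraries allow. In the edgeR quasi-likelihood test over cell types, which scales each library by its other types, the log2 fold of null over WT was 0.23 (SE 0.83, Benjamini-Hochberg adjusted p = 0.991). This fold was 0.62 without TMM scaling, 0.60 without WT B and 0.03 without WT A. That test called 3 of 27 types at E7.5 (11.1%), and paraxial mesoderm was not among them.

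Presomitic cells numbered 40 and 4 in the null libraries of E8.5 (1.04% and 0.349%) and 46 and 41 in WT (1.81% and 1.07%). The 2 groups did not overlap, with means of 0.696% ± 0.491 and 1.44% ± 0.521 (SD, n = 2 each, exact permutation p = 0.333, the smallest possible). The edgeR log2 fold was -0.96 (SE 0.57, adjusted p = 0.931), none of the 68 types being called, and it was -0.42 without null B and -2.004 without null A (adjusted p = 0.219). At E9.5 the null libraries A to D held 32, 15, 11 and 21 presomitic cells (0.740%, 0.622%, 0.691% and 1.36%), and the WT libraries 33, 9, 9 and 39 (1.07%, 0.341%, 0.473% and 0.986%). These ranges overlapped, with means of 0.853% ± 0.340 and 0.718% ± 0.365 (SD, n = 4 each, exact permutation p = 0.657, smallest possible 0.0286). The edgeR log2 fold was 0.16 (SE 0.49, adjusted p = 0.996), and 1 of 71 types was called (1.41%). No loss or gain of presomitic cells was detectable with this number of libraries and cells, which does not show that the shares were equal.

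**Figure D1:**
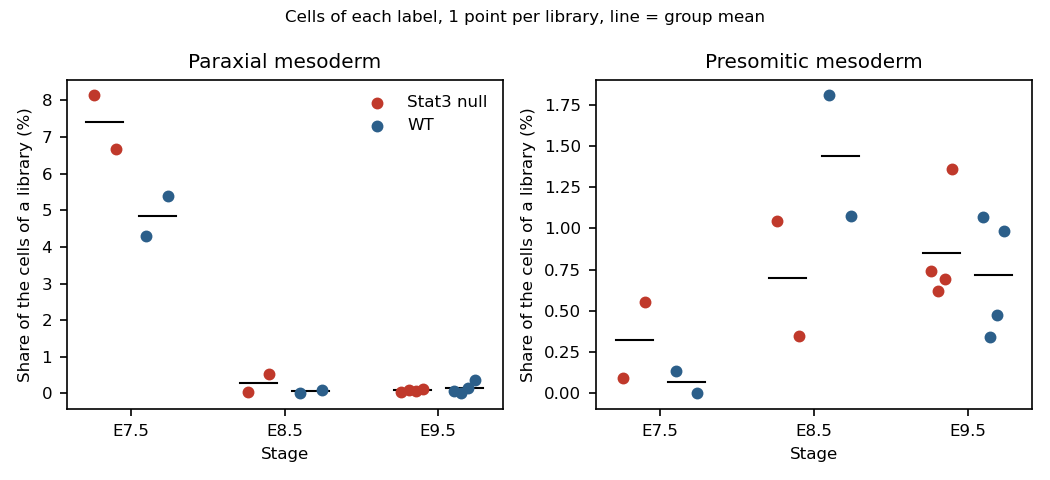
Share of the cells of each library (%, vertical axis) labelled paraxial mesoderm (left) or presomitic mesoderm (right) by stage, with 1 point per library, null in red and WT in blue, and the group mean as a black line. Paraxial cells make up 4.29% to 8.15% of E7.5 libraries and are near 0 later, and the presomitic shares of null and WT overlap at E9.5.

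Few paraxial cells lay outside E7.5. At E8.5 the 7 null cells had a mean label score, the share of the nearest atlas cells with the label, of 0.509, and in 3 of them only a minority of those atlas cells carried it. The 4 WT cells had a mean score of 0.380, and a minority in all 4. At E9.5 WT held 20 (15 of them in WT D) and null held 7, and in 19 of the 20 WT cells and 6 of the 7 null cells only a minority of the 25 nearest atlas cells carried the label. The mean label score was 0.360 and 0.349 there, against 0.669 in null and 0.758 in WT at E7.5. The E9.5 cells also mapped to early atlas stages, with 9 of the 20 WT cells at atlas E7.5. Presomitic cells had higher scores, 0.821 in null and 0.828 in WT at E8.5, with 0.794 in null and 0.843 in WT a day later. Presomitic cells at E7.5 numbered 4 in null and 1 in WT. Expression was therefore tested in paraxial cells at E7.5 and in presomitic cells at E8.5 and E9.5.

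Among libraries with more than 15 cells of both labels together, the presomitic share of these cells was 1.12% and 7.69% in null and 3.13% and 0% in WT at E7.5. It was 97.6% in null A and 100% and 91.1% in WT at E8.5, and 94.1%, 88.2% and 91.3% in null and 94.3% and 72.2% in WT at E9.5. The change from one label to the other fell between E7.5 and E8.5 in both genotypes. The difference of null minus WT was 4.27 percentage points over the stages (exact two-sided permutation within stages, p = 0.283, smallest possible 0.00556). WT D at E9.5, with the 15 poorly matched paraxial cells, was the low value, and without it the E9.5 difference turned from 7.97 to -3.07 points.

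The mapped atlas stage, the mean stage of each cell's match, differed little between genotypes, and 2 or fewer libraries a group cannot pass a threshold of 0.05. Paraxial cells at E7.5 averaged 7.60 and 7.68 days in null A and B and 7.59 and 7.57 days in WT A and B, a difference of 0.0593 days (exact permutation p = 0.333, the smallest possible). Presomitic cells at E8.5 averaged 8.58 days in null A and 8.51 days in both WT libraries (difference 0.0692 days, p = 0.333 by exact permutation, the smallest possible). At E9.5 they averaged 8.60 and 8.75 days in null A and D and 8.60 days in both WT A and D (0.0753 days, exact permutation p = 0.667). Most presomitic cells of E9.5 mapped to atlas stages earlier than their own, with 37 of 79 null and 39 of 90 WT cells at atlas E8.75. Differences of medians were 0 in each of the 3 cases.

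The defining genes placed presomitic mesoderm near the top of the series for most of its markers and paraxial mesoderm on a different profile. Among the 79 types for which a mean could be taken, presomitic mesoderm was at rank 3 for *Tbx6* with a mean of 93.0 CPM, after intermediate mesoderm (141 CPM) and somitic mesoderm (111 CPM). It was at rank 2 for *Msgn1* (13.6 CPM), behind intermediate mesoderm (17.98 CPM), and at rank 3 for *Hes7* (137 CPM). For *Dll3*, *Dll1* and *Rspo3* it was at ranks 3, 4 and 5, but for *Lfng* at rank 13 (21.5 CPM). Paraxial mesoderm was at rank 4 for *Tcf15* (205 CPM), below posterior somitic tissues (555 CPM), but at rank 8 for *Tbx6* (9.35 CPM) and rank 7 for *Msgn1* (0.802 CPM). It was at rank 3 for *Mesp1* (198 CPM), a factor of early cardiac and cranial mesoderm, and at rank 3 for *Foxc2* (91.0 CPM), a forkhead factor of paraxial mesoderm, while *Hes7* was at 2.37 CPM. The other paraxial markers ranked lower there, *Meox1* at 10, *Foxc1* at 11, *Twist1* at 14 and *Prrx1* at 24. *Foxc1* was at 50.3 CPM in paraxial and 52.2 CPM in presomitic mesoderm. Of the 3 marker genes, then, *Tcf15* was higher in the cells labelled paraxial and *Tbx6* and *Msgn1* in those labelled presomitic. The split was not clean, since presomitic mesoderm was at rank 6 for *Tcf15* (53.0 CPM). The cells labelled intermediate mesoderm had a higher mean of *Tbx6* and *Msgn1* than either label.

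At the level of cells, 73 of 79 presomitic null cells (92.4%, exact 95% binomial interval 84.2% to 97.2%) and 82 of 90 WT cells (91.1%, 83.2% to 96.1%) had a *Tbx6* UMI at E9.5, at median depths of 41268 and 31149.5 UMIs. In the sclerotome, the ventral somite derivative that should lack *Tbx6*, it was 9 of 698 null and 9 of 790 WT cells (1.29% and 1.14%), at 37531.5 and 29860 UMIs. With each cell thinned to 10000 UMIs the presomitic shares were 69.6% in null and 67.8% in WT, and those of the sclerotome 0.143% and 0.633%. *Tcf15* UMIs were in 143 of 201 null (71.1%, 64.4% to 77.3%) and 101 of 127 WT (79.5%, 71.5% to 86.2%) paraxial cells at E7.5. The intervals cover counting error only.

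No regulator of presomitic identity passed the test between genotypes. The label was itself set by expression, so these tests cover only cells that kept it and cannot show a loss of identity. At E9.5 *Tbx6* stood at 95.6, 121, 153 and 101 CPM in null A to D and at 114, 117, 123 and 96.3 CPM in WT A to D, 2 overlapping ranges. *Msgn1* was at 8.39, 10.1, 9.24 and 18.99 CPM in null and 9.28, 3.91, 6.85 and 12.1 CPM in WT, and *Hes7*, the oscillating repressor of the segmentation clock, at 139, 339, 189 and 108 CPM and 199, 297, 233 and 104 CPM. The Notch ligand *Dll1* was at 133, 142, 152 and 104 CPM in null and 137, 137, 98.1 and 81.7 CPM in WT. The ranges of null and WT overlapped for each of the 4 genes. Tests used the libraries with more than 15 cells, null A and D against WT A and D. There the edgeR log2 fold of null over WT was -0.12 (SE 0.17) for *Tbx6*, 0.30 (SE 0.47) for *Msgn1*, -0.29 (SE 0.28) for *Hes7* and 0.11 (SE 0.22) for *Dll1*, with Benjamini-Hochberg adjusted p between 0.945 and 0.965.

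The next genes of the segmentation programme did not pass either. *Dll3*, a divergent Delta protein of the clock, had a log2 fold of -0.27 (SE 0.22) and *T* (Brachyury), a T-box factor of the streak and tail bud, one of -0.43 (SE 0.21). The glycosyltransferase gene *Lfng* was at 49.5, 75.9, 18.5 and 6.65 CPM in null and 34.3, 31.3, 27.4 and 4.05 CPM in WT, and its fold of 0.62 had an SE of 1.53. *Fgf8*, the ligand of the posterior FGF gradient, was at 36.9, 121, 49.9 and 52.2 CPM in null and 114, 62.5, 68.5 and 69.6 CPM in WT. In libraries A and D its log2 fold was -1.06 (SE 0.26, unadjusted p = 0.00123), which did not pass adjustment by edgeR over all genes (adjusted p = 0.467), and over all 8 libraries it was -0.41. In the neighbouring posterior somitic tissues of E9.5 *Fgf8* was called lower in null (-1.13, SE 0.25, edgeR adjusted p = 0.0346). *Rspo3*, a secreted Wnt amplifier, was at 348, 636, 449 and 400 CPM in null and 642, 641, 472 and 519 CPM in WT (log2 fold -0.65, SE 0.13, adjusted p = 0.138). *Aldh1a2*, the enzyme that makes retinoic acid, was at 34.4, 13.5, 18.5 and 34.2 CPM in null and 1.86, 7.81, 0 and 18.6 CPM in WT (log2 fold 1.64, SE 0.65, adjusted p = 0.945). *Mesp2*, *Ripply2*, *Uncx* and *Socs3* had too few UMIs for the test.

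**Figure D2:**
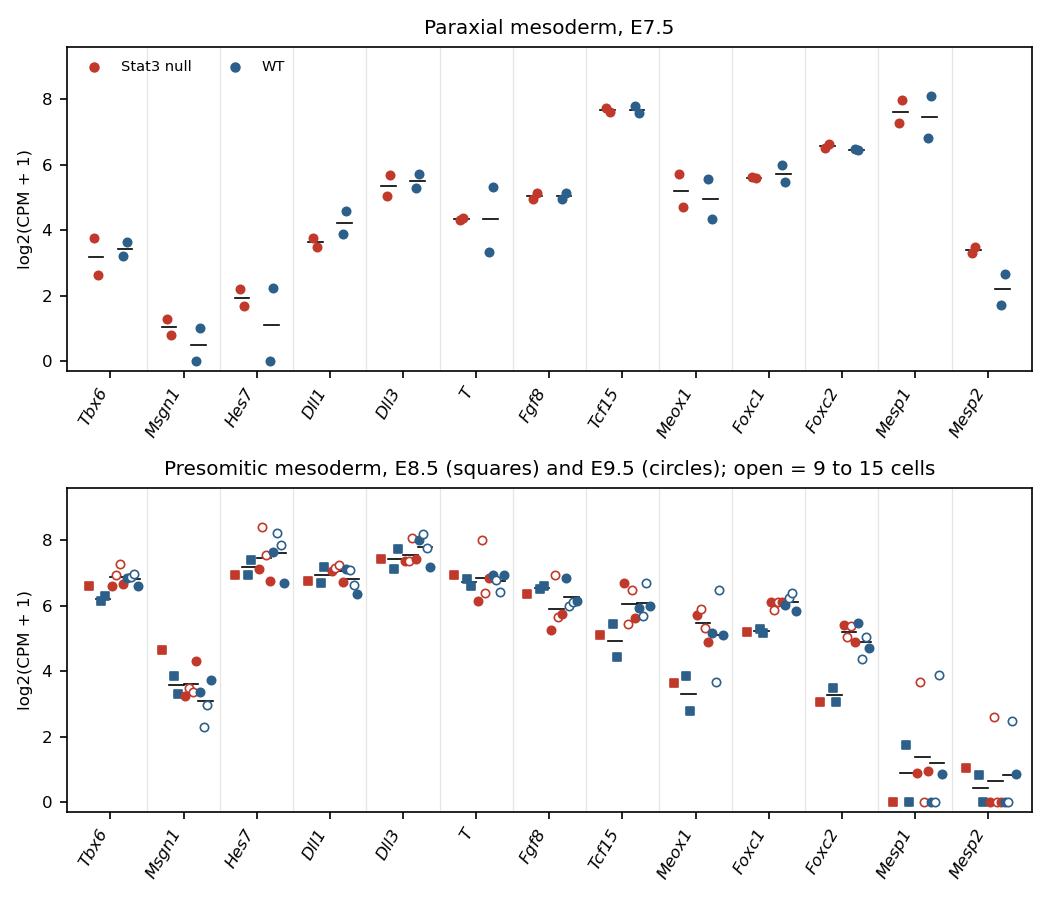
Levels of 13 genes of the paraxial programme as log2(CPM + 1), 1 point per library, in paraxial cells at E7.5 (top) and presomitic cells at E8.5 (squares) and E9.5 (circles) (bottom), null in red and WT in blue, open symbols for libraries with 9 to 15 cells and lines for group means. Null and WT points intermingle for *Tbx6*, *Hes7* and *Tcf15*, and *Mesp1* is seen mainly in the paraxial cells.

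In paraxial cells at E7.5 none of the preset regulators of the tissue that could be tested passed, and values are given for some of them only. The same limit of the label holds here. *Tcf15*, a bHLH factor needed for somites to become epithelial, was at 211 and 195 CPM in null A and B and at 223 and 189 CPM in WT A and B (log2 fold 0.03, SE 0.12). *Foxc2* was at 90.0 and 99.2 CPM in null and 88.6 and 86.2 CPM in WT (0.13, SE 0.15). *Mesp1* was at 155 and 249 CPM in null and 113 and 274 CPM in WT (-0.02, SE 0.62). *Foxc2* was slightly higher in both null libraries, while for *Tcf15*, *Mesp1* and *Foxc1* (log2 fold -0.07, SE 0.19) the WT libraries differed by more than the group means did. The edgeR adjusted p was at or near 1 for all 4 genes. *Aldh1a2* was at 272 and 132 CPM in null and at 109 and 76.1 CPM in WT, which did not overlap, but its log2 fold of 1.26 (SE 0.41) had an unadjusted p of 0.0399 and an adjusted p of 0.999 by edgeR. *Msgn1*, *Hes7*, *Spry4*, *Wnt3a*, *Uncx* and *Socs3* had too few UMIs in paraxial cells for the test.

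Against this background, 15 of the 8931 genes tested in paraxial cells at E7.5 passed an adjusted p under 0.05 and an absolute log2 fold over 1 (0.168% of genes), 8 higher (0.0896%) and 7 lower (0.0784%) in null cells. Imprinted genes, of which only the copy from one parent is active, gave 4 of the 15. Of 34 imprinted genes tested, 2 rose (*Igf2* and *Impact*) and 2 fell (*Grb10* and *H19*), with a median log2 fold of 0.00, the same as over all genes. The anterior Hox gene *Hoxb1* and the Cdx gene *Cdx4* were higher in null cells.

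*Grb10*, an imprinted adaptor that restrains insulin and IGF receptor signalling, was at 10.1 and 3.68 CPM in null A and B and at 282 and 232 CPM in WT A and B. The groups were far apart, and the edgeR log2 fold was -4.84 (SE 0.22, adjusted p = 4.82e-09). The gene lies on chromosome 11 from 11930508 to 12038683 on the minus strand. A *Grb10* UMI was seen in each of the 31 and 96 WT cells and in 39 of 177 and 5 of 24 null cells. In the presomitic cells the contrast was as clear. At E9.5 *Grb10* was at 1.68, 6.74, 1.85 and 1.90 CPM in null A to D and at 326, 332, 388 and 335 CPM in WT A to D, and the log2 fold in A and D was -7.47 (SE 0.27, edgeR adjusted p = 1.53e-09). All 90 WT cells and 7 of 79 null cells had a *Grb10* UMI.

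*H19*, the imprinted long noncoding RNA that neighbours *Igf2* on chromosome 7, was at 21.3 and 37.5 CPM in null and 260 and 213 CPM in WT paraxial cells (log2 fold -3.17, SE 0.21, edgeR adjusted p = 8.73e-06). In null B 28 of its 51 UMIs came from 1 cell, and with the highest cell of each library left out the log2 fold was -3.61. *Igf2*, the growth factor gene that shares enhancers with *H19*, was at 120 and 91.2 CPM in null and 59.0 and 41.7 CPM in WT (1.19, SE 0.18, adjusted p = 0.00662). Both null libraries lay above both WT libraries, although the fold fell to 0.96 or 0.92, under the threshold, without null A or without WT B. In presomitic cells at E9.5 *H19* was uneven among the null libraries, at 5.03, 21.9, 5.55 and 290 CPM in null A to D and at 501, 922, 890 and 818 CPM in WT A to D. Null D held 305 *H19* UMIs, spread over 14 of its 21 cells. With null A and D in the test the log2 fold was -2.21 (SE 1.71, edgeR adjusted p = 0.945). *H19* at E8.5 was at 113 CPM in null A and 517 and 350 CPM in WT, and the 4 presomitic cells of null B held 0 *H19* UMIs.

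*Hoxb1*, a Hox gene of the posterior streak and hindbrain level, was at 165 and 180 CPM in null and 86.3 and 75.7 CPM in WT paraxial cells (log2 fold 1.12, SE 0.14, edgeR adjusted p = 0.000997). Its UMIs were spread over 121 of 177 and 17 of 24 null cells and 16 of 31 and 51 of 96 WT cells. The groups did not overlap. Of 29 Hox genes listed, 4 could be tested at E7.5. *Hoxb2* was at 50.3 and 89.0 CPM in null and 40.9 and 36.7 CPM in WT (0.77, SE 0.26, adjusted p = 0.778), and *Hoxb3* had a log2 fold of -0.26. *Hoxb1* was called with each library left out in turn.

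*Cdx4*, an X-linked homeobox gene that activates Hox genes in the tail bud, was at 16.6 and 21.3 CPM in null and 1.51 and 4.04 CPM in WT (log2 fold 2.48, SE 0.38, edgeR adjusted p = 0.00709). The null B value came from 1 cell that held all 29 UMIs, while in null A 125 UMIs lay in 22 of 177 cells. With the highest cell of each library left out *Cdx4* was not called. Its relative *Cdx2* was at 42.9 and 26.5 CPM in null and 24.2 and 20.9 CPM in WT (0.78, SE 0.23, adjusted p = 0.452). *Cdx4* was the only one of 17 tested genes of the Wnt list that passed, and the list's median was 0.19.

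The genes that fell beside *Grb10* and *H19* were of other kinds. *Rhox5*, an X-linked homeobox gene, was at 2.39 and 2.94 CPM in null and 17.4 and 18.5 CPM in WT (log2 fold -2.83, SE 0.35, edgeR adjusted p = 0.000997). *Spink1*, a trypsin inhibitor, was at 2.53 and 0 CPM in null and 15.9 and 30.6 CPM in WT (-3.55, SE 0.46, adjusted p = 0.00419). *Pusl1*, a pseudouridine synthase-like gene, was at 7.98 and 12.5 CPM in null and 40.9 and 35.7 CPM in WT (-2.05, SE 0.26, adjusted p = 0.00105). All 3 genes separated the libraries without overlap. *Akr1e1*, an aldo-keto reductase, was at 1.20 and 3.68 CPM in null and 10.6 and 13.5 CPM in WT (-2.88, SE 0.48, adjusted p = 0.0150). *Myl7*, the atrial myosin light chain of early heart muscle, was at 86.0 and 84.5 CPM in null and 169 and 222 CPM in WT (-1.19, SE 0.15, adjusted p = 0.000997). Whole-library *Xist* was at 1.94 and 0.580 CPM in the E7.5 null libraries and 266 and 113 CPM in WT. The part of sex in the X-linked *Rhox5* and *Cdx4* was not tested.

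Markers of other cell types were read beside the paraxial comparison. The summed level of the 6 cardiac markers, none of them at 0 in either group, was 104 to 113 CPM in null and 194 to 247 CPM in WT, but most of it was *Myl7* itself. The 5 others summed to 19.8 to 26.9 CPM in null and 24.6 to 24.98 CPM in WT, ranges that overlapped. The 7 endoderm and epithelial markers summed to 29.4 to 33.9 CPM in null and 47.7 to 76.1 CPM in WT. Markers of lateral plate and intermediate mesoderm, 9 genes of which *Pax8* was at 0 in both groups, summed to 344 to 400 CPM in null and 279 to 328 CPM in WT, without overlap. The 7 that could be tested had a median log2 fold of 0.34, and none was called. *Hoxb1*, higher in null paraxial cells, was at 386 and 379 CPM in null and 368 and 261 CPM in WT intermediate mesoderm. The part of cells or RNA of these other types in the paraxial results was not tested. Among the higher genes, *Impact*, an imprinted regulator of translation, was at 41.5 and 46.3 CPM in null and 22.7 and 18.5 CPM in WT (log2 fold 1.13, SE 0.21, edgeR adjusted p = 0.0383). *Igfbpl1*, an IGF-binding protein-like gene, was at 69.8 and 78.7 CPM against 42.4 and 25.6 CPM (1.22, SE 0.21, adjusted p = 0.0170). *Impact* and *Igfbpl1* were lost when 1 library was left out. *Hist1h4d*, a histone H4 gene, had a log2 fold of 1.04 (SE 0.17, adjusted p = 0.0150), but near-identical H4 copies make its counts uncertain.

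**Figure D3:**
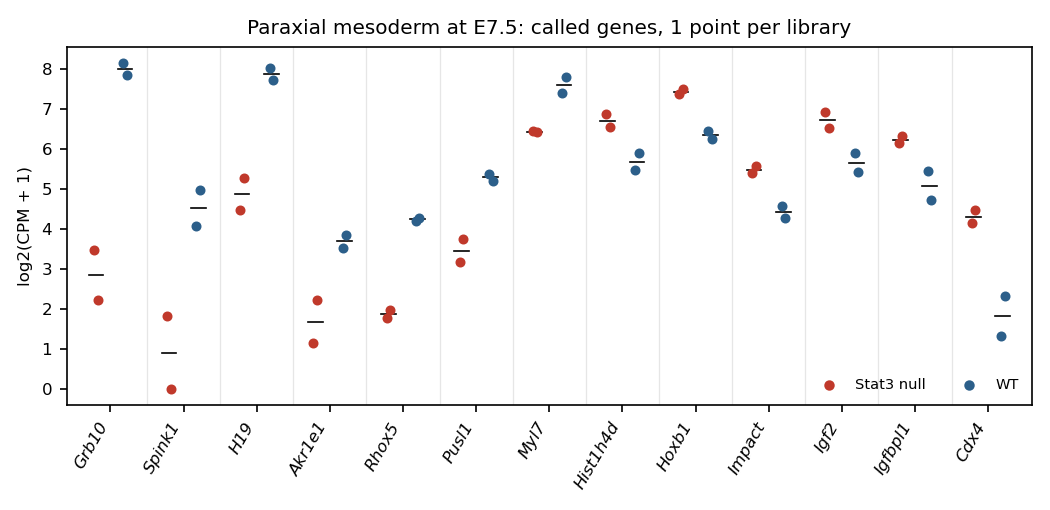
Genes that passed the test in paraxial cells at E7.5, as log2(CPM + 1) with 1 point per library, null in red and WT in blue, and lines for group means. *Grb10* shows the widest gap, with null at 10.1 and 3.68 CPM and WT at 282 and 232 CPM, and both null libraries lie on one side of both WT libraries for each gene.

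Leaving out a library changed these calls. With each of the 4 libraries left out in turn, *Grb10*, *H19*, *Rhox5*, *Spink1*, *Pusl1*, *Hoxb1* and *Cdx4* were called every time, and the other 8 were lost at least once. *Grb10*, *H19*, *Rhox5*, *Pusl1* and *Hoxb1* were also called by DESeq2, by limma-voom, with thinned cells and without the highest cell of each library. The lists of presomitic markers (12 tested), somite regulators (16), Notch (15), FGF (13), retinoic acid (12), STAT targets (20) and cell cycle genes (30) held no called gene at E7.5, with medians between -0.02 and 0.10. At an unadjusted p under 0.05 the same lists held 4, 2, 5, 1, 3, 1 and 1 genes, against 437 of all 8931 genes (4.89%). The share was largest in the presomitic, Notch and retinoic acid lists, above that of all genes. Log2 folds of their tested members ran from -0.67 to 1.26, -1.92 to 1.10 and -0.87 to 1.35. The lists share members, such as *Aldh1a2* in the presomitic and retinoic acid lists, so these counts overlap. DESeq2 called 11 genes over all, 10 of them shared.

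Fewer genes differed in presomitic cells at E9.5, where 6 of 7985 genes passed in null A and D against WT A and D (0.0751%), 4 higher (0.0501%) and 2 lower (0.025%). Besides *Grb10* these included *Cwc22*, *Zdbf2*, *Nnat* and *Tc2n*. Adding null B and C and WT B and C, which held 9 to 15 cells each, 6 of 7021 genes passed (0.0855%), and 3 of them were shared (*Grb10*, *Cwc22* and *Zdbf2*). The 8-library test was chosen after the data had been seen.

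*Cwc22*, a factor of the exon junction complex and of splicing, was at 213, 103, 185 and 169 CPM in null A to D and at 40.8, 43.0, 41.1 and 39.7 CPM in WT A to D. The lowest null library lay above the highest WT library, and the WT libraries were tightly grouped. The log2 fold was 2.22 (SE 0.19, edgeR adjusted p = 3.29e-05) in A and D and 2.07 (SE 0.19, adjusted p = 1.87e-08) in the 8 libraries. In paraxial cells at E7.5 *Cwc22* was at 163 and 150 CPM in null and 78.7 and 88.2 CPM in WT, with an adjusted p of 0.00473 and a log2 fold of 0.93, under the threshold. At E8.5 it was at 80.5 CPM in null A and 66.1 and 64.7 CPM in WT.

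*Zdbf2*, an imprinted zinc finger gene, was at 117, 89.4, 92.4 and 127 CPM in null and 47.3, 66.4, 36.5 and 39.7 CPM in WT presomitic cells at E9.5, again without overlap. Its log2 fold was 1.47 (SE 0.19, edgeR adjusted p = 0.00356) in A and D and 1.28 (SE 0.18, adjusted p = 0.000155) in the 8 libraries. With cells thinned to 10000 UMIs it was not called (adjusted p = 0.0855). At E8.5 *Zdbf2* was at 80.5 CPM in null A and 43.3 and 45.6 CPM in WT, and in paraxial cells at 117 and 86.0 CPM in null and 74.2 and 56.5 CPM in WT (log2 fold 0.74, adjusted p = 0.146). Of 27 genes called between genotypes in the paraxial comparison or any presomitic one, 16 had a promoter in the RefSeq table, 24 promoters in all, and 1 of these, a promoter of *Zdbf2*, held the STAT motif, which 8.30% of all promoters held. That promoter is the upstream one, chr1:63200108-63200407 on the plus strand, with the match at positions -242 to -234 in capitals. It is not the start at which the annotated gene, 63273265 to 63314576 on chromosome 1, begins.
Zdbf2 upstream promoter: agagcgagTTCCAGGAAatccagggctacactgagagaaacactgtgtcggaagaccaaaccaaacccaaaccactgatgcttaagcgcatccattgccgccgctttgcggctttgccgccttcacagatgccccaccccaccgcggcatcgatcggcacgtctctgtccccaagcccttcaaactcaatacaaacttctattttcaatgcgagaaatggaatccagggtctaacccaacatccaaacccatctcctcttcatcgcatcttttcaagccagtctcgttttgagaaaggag

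*Nnat*, an imprinted proteolipid gene of the nervous system, was at 121 and 92.1 CPM in null A and D and 254 and 250.05 CPM in WT A and D (log2 fold -1.26, SE 0.15, edgeR adjusted p = 0.00199). The other libraries did not follow, since null B was at 3.37 and null C at 251 CPM, against 219 and 194 CPM in WT B and C. Over all 8 libraries its log2 fold was -1.02 (SE 0.66, adjusted p = 1.00). *Nnat* thus differed more among the null libraries than between the genotypes.

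*Tc2n*, a C2 domain gene, was at 31.0 and 31.3 CPM in null A and D and 0.928 and 2.43 CPM in WT A and D (log2 fold 4.07, SE 0.49, edgeR adjusted p = 0.00199), while null B and C were at 3.37 and 1.85 and WT B at 31.3 CPM. In null D 29 of its 33 UMIs came from 1 cell, and *Tc2n* was lost without the highest cell.

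Of the genes that passed only with all 8 libraries, 2 were histone genes whose near-identical copies make them uncertain. *Hist1h4i* was at 15.1, 5.06, 11.1 and 18.04 CPM in null and 43.6, 27.4, 50.2 and 49.4 CPM in WT (log2 fold -1.73, SE 0.27, edgeR adjusted p = 0.000818). *Hist2h2ac* was at 71.3, 74.2, 66.6 and 51.3 CPM in null and 34.3, 23.4, 11.4 and 21.8 CPM in WT (1.42, SE 0.23, adjusted p = 0.00141). *Nap1l5*, a nucleosome assembly protein-like gene, was at 31.0, 21.9, 29.6 and 34.2 CPM in null and 12.99, 19.5, 4.56 and 8.90 CPM in WT (1.48, SE 0.30, adjusted p = 0.0239). All 3 separated the genotypes without overlap.

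**Figure D4:**
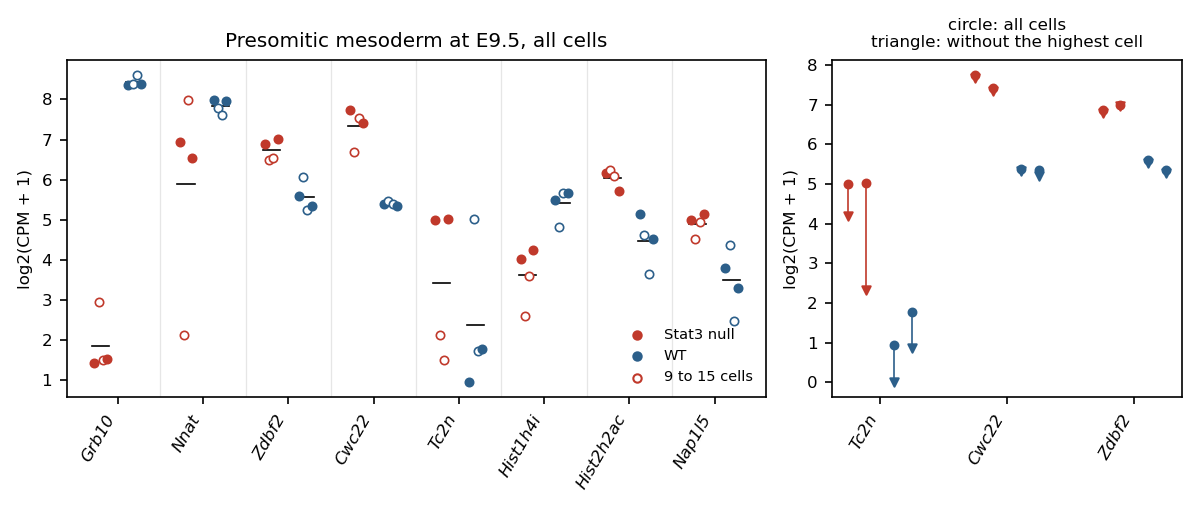
Genes that passed in presomitic cells at E9.5, as log2(CPM + 1), null in red and WT in blue. Left, 8 genes in all 8 libraries, open symbols for libraries with 9 to 15 cells; right, *Tc2n*, *Cwc22* and *Zdbf2* in null A and D and WT A and D with all cells (circles) and without the highest cell (triangles). The *Tc2n* value of null D, 31.3 CPM with all cells, drops without 1 cell, while *Cwc22* and *Zdbf2* stay apart.

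The lists of the tissue's own biology held no called gene at E9.5. No member passed among 13 presomitic markers (median log2 fold -0.17), 14 somite regulators (0.12), 13 Notch (0.08), 14 FGF (-0.09), 16 Wnt (-0.11), 11 retinoic acid (-0.08), 28 Hox (0.04), 16 STAT target (0.09) and 30 cell cycle genes (-0.02), against a median of 0.01 over all genes. At an unadjusted p under 0.05 they held 3, 0, 1, 2, 1, 1, 2, 1 and 1, against 409 of all 7985 genes (5.12%). Members shared between lists are counted in each. By DESeq2 6 genes were called over all, the same 6. Imprinted genes gave 1 higher and 2 lower of 31 tested. Blood markers moved with genotype in these cells, with a summed level of 7.40 to 48.4 CPM in null and 249 to 1896 CPM in WT at E9.5. Of the 7 blood markers 1 was at 0 in the null cells, and the part of blood RNA in the results was not tested. At E8.5 the same sum was 1175 CPM in null A and 1045 to 1230 CPM in WT.

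At E8.5 only null A had enough null cells, and it was compared with both WT libraries in a fit that took its spread from both stages, chosen after the data had been seen. There 2 of 8725 genes passed (0.0229%). *Grb10* was at 14.6 CPM in null A and 264 and 235 CPM in WT (log2 fold -4.05, SE 0.27, edgeR adjusted p = 1.05e-11). The 14 *Grb10* UMIs of null A lay in 3 of its 40 cells, 5 in 1 cell without a tdTomato UMI and 9 in 2 cells with one. In the 4 presomitic cells of null B, which were not in the test, *Grb10* was at 348 CPM and in each of the 4 cells. *Scd2*, a stearoyl-CoA desaturase, was at 789 CPM in null A and 422 and 378 CPM in WT (1.01, SE 0.15, adjusted p = 0.00139). Markers of lateral plate and intermediate mesoderm summed to 125 CPM in null A and 213 to 239 CPM in WT, and their part in these results was not tested. As null A is a lone library, it is assumed to vary like the other groups. *Tbx6* was at 97.2 CPM in null A and 69.2 and 77.9 CPM in WT, and *Msgn1* at 24.0 and 13.4 and 8.82 CPM, with adjusted p of 0.912 for both.

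When the genotype effect was averaged over both stages, 8 of 8725 genes passed (0.0917%), in a fit added after the data had been seen. *Alpl*, the tissue-nonspecific alkaline phosphatase, was at 5.23 CPM in null A of E8.5 and 4.19 and 3.80 CPM in null A and D of E9.5, against 39.3 and 27.9 CPM and 15.8 and 19.4 CPM in the WT libraries (log2 fold -2.35, SE 0.35, edgeR adjusted p = 0.000306). At E7.5 *Alpl* was also called lower in null intermediate mesoderm (log2 fold -3.14) and null lateral plate mesoderm (-2.87). *Pusl1* was at 11.5, 3.36 and 6.65 CPM in null and 23.6, 32.3, 15.8 and 25.1 CPM in WT (-1.67, SE 0.34, adjusted p = 0.0226). It is the only gene called both here and in paraxial cells, with the same direction. *Cdkn1a*, the p21 inhibitor of the cell cycle, was at 34.5, 18.5 and 7.60 CPM in null and 9.44, 16.2, 1.86 and 4.86 CPM in WT (1.68, SE 0.36, adjusted p = 0.0358), so that its groups overlapped across stages but not within them. *Zfp605*, a zinc finger gene, was at 24.0, 17.6 and 10.4 CPM in null and 7.86, 7.35, 3.71 and 4.86 CPM in WT (1.67, SE 0.36, adjusted p = 0.0384). The 5 tested markers of lateral plate and intermediate mesoderm were all lower in null in this fit, with a median log2 fold of -0.85 and none called, as were the 3 tested cardiac markers (median -1.15). Without E8.5 null A, 5 of the 8 genes, *Alpl*, *Pusl1*, *Cdkn1a*, *Zfp605* and *Nap1l5*, were lost. *Grb10* had a log2 fold of -5.70 and an adjusted p of 0.0515.

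The genotype effect at E9.5 was set against that at E8.5 by an interaction term, and 6 of 8725 genes passed (0.0688%). *Cwc22* (1.89, edgeR adjusted p = 0.00261) and *Nnat* (-1.50, adjusted p = 0.00310) were among them, with *Nnat* at 145 CPM in null A and 116 and 140 CPM in WT at E8.5. *Grb10* passed as well (-3.41, adjusted p = 0.00591), and its E8.5 null level came from 3 cells of null A that held all 14 UMIs. In E9.5 null A and D a *Grb10* UMI was found in 2 of 32 and 2 of 21 cells, 1 UMI each. *Rspo3* (-1.04, adjusted p = 0.0129) was at 561 CPM in null A and 404 and 483 CPM in WT at E8.5. *Meis2*, a TALE homeobox partner of Hox proteins, was at 65.8 CPM in null A and 132 and 106 CPM in WT at E8.5, and at 200 and 189 CPM in null A and D and 135 and 139 CPM in WT A and D at E9.5 (1.32, adjusted p = 0.0391). All 6 depend on 1 E8.5 null library and were lost without E8.5 WT A, and DESeq2 called none of them.

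The null effect was also set against that in the neighbouring types of the same libraries, with the library as a block. These tests were added after the data had been seen. Against intermediate mesoderm at E7.5, 3 of 9414 genes differed by the same limits (0.0319%), and DESeq2 called none of them. *Hoxb1* differed as well, by 0.75 (adjusted p = 0.00214 by edgeR and 1.00 by DESeq2), under the fold limit. *Myl7* fell in paraxial cells but was at 15.8 and 9.24 CPM in null and 11.8 and 12.6 CPM in WT intermediate mesoderm (difference of log2 folds -1.43, edgeR adjusted p = 0.00420). *Meox1*, a homeobox gene of the forming somite, was at 51.7 and 25 CPM in null and 46.2 and 19.2 CPM in WT paraxial cells, and at 71.8 and 61.1 CPM and 154 and 81.3 CPM in intermediate mesoderm (1.27, adjusted p = 0.00214). *Lefty2*, a Nodal antagonist, was at 17.02 and 14.7 CPM in null and 12.1 and 30.6 CPM in WT paraxial cells and at 11.99 and 11.4 CPM and 17.4 and 85.5 CPM in intermediate mesoderm (1.76, adjusted p = 0.00214), where WT B alone is high. Against lateral plate mesoderm 0 of 9797 genes passed both limits by edgeR (0%), with 283 at an unadjusted p under 0.05 and 1 called by DESeq2. That gene was *Cst3*, a secreted inhibitor of cysteine proteases, whose difference of -0.997 fell just short of the fold limit in edgeR (SE 0.10, adjusted p = 7.49e-07). It was at 212 and 202 CPM in null and 205 and 162 CPM in WT paraxial cells, against 1085 and 993 CPM in null and 480 and 422 CPM in WT lateral plate mesoderm. These neighbours had 16 of 8998 (0.178%) and 13 of 10004 (0.13%) genes called on their own. Several named paraxial calls were shared with them in the same direction. In intermediate mesoderm these were *Grb10*, *H19*, *Rhox5* and *Pusl1*, and in lateral plate mesoderm *Grb10*, *Pusl1*, *Akr1e1* and *Igf2*. *Spink1*, *Hoxb1*, *Cdx4* and *Myl7* were called in neither.

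At E9.5 posterior somitic tissues, the segmented neighbour, had 7 of 8494 genes called (0.0824%). Of these, *Grb10*, *Cwc22* (log2 fold 2.08), *Zdbf2* (1.26), *Hist1h4i* (-1.75), *Hist2h2ac* (1.08) and *Pusl1* (-1.32) had the direction of their presomitic calls. *Fgf8* was called lower there as well (-1.13), and its presomitic log2 fold was also negative but not called. *Grb10* was the 1 of 8580 genes whose null effect differed between posterior somitic tissues and presomitic mesoderm by both limits (0.0117%), with a difference of log2 folds of -2.40 (edgeR adjusted p = 0.00181) that DESeq2 did not call. *Grb10* in null posterior somitic tissues was at 16.5, 8.84, 13.1 and 22.7 CPM in A to D, above each matching presomitic level of 1.68, 6.74, 1.85 and 1.90 CPM, and at 411, 378, 367 and 377 CPM in WT. In both tissues each null library lay far below each WT library. *Sparcl1*, a matricellular protein gene, had a difference of -0.98, under the fold limit (SE 0.14, adjusted p = 0.000256 by edgeR and 0.0164 by DESeq2). It was at 167 to 228 CPM in null and 140 to 294 CPM in WT presomitic cells, which overlapped, and at 124 to 188 CPM in null and 63.3 to 113 CPM in WT posterior somitic tissues, which did not.

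Stage was compared in WT presomitic cells, where many more genes passed than between genotypes. Between E8.5 WT A and B and E9.5 WT A and D, 180 of 7826 genes passed (2.3%), 126 higher (1.61%) and 54 lower (0.69%) at E9.5. Stage here cannot be told apart from the separate embryos and library preparations of each day. Tests of stage with a library left out also held the null libraries of both stages, so they differ from this test by more than that library.

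Hox genes changed in both directions. *Hoxd11* was at 36.2 and 20.6 CPM in WT A and B at E8.5 and 577 and 530 CPM in WT A and D at E9.5 (log2 fold 4.00, SE 0.18, edgeR adjusted p = 4.5e-10). *Hoxc11* was at 3.15 and 0 CPM and then 100 and 80.1 CPM (5.21, SE 0.44, adjusted p = 2.22e-06), *Hoxd10* at 11.8 and 7.35 CPM and then 73.3 and 81.7 CPM (2.74), and *Hoxa10* at 42.5 and 16.2 CPM and then 155 and 125 CPM (1.93). Outside the list *Hoxa11* (3.82) and *Hoxd13* (3.18) were called higher too. Others fell, with *Hoxc8* at 310 and 335 CPM and then 138 and 128 CPM (-1.46, SE 0.13, adjusted p = 4.74e-06). *Hoxa7* had a log2 fold of -1.40, *Hoxb6* one of -1.36, *Hoxb8* one of -1.22 and *Hoxb9* one of -1.09, all called, and *Hoxd1*, outside the list, one of -1.33. Of 27 listed Hox genes tested, 3 rose and 5 fell, and the median was -0.31, while *Hoxc11* is outside the list. *Hoxc10*, at 108 and 33.8 CPM and then 405 and 532 CPM, did not pass (2.41, SE 0.58, adjusted p = 0.250).

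The Cdx genes, which open the trunk Hox genes in the tail bud, were lower at E9.5. *Cdx2* was at 126 and 159 CPM at E8.5 and 42.7 and 49.4 CPM at E9.5 (log2 fold -1.78, SE 0.20, edgeR adjusted p = 3.83e-05), and *Cdx4* at 381 and 350 CPM and then 135 and 208 CPM (-1.27, SE 0.18, adjusted p = 0.00249). *Cdx4* was not called when any 1 of the 4 libraries was left out. *Cdx1* had a log2 fold of -2.21 that did not pass (adjusted p = 0.0904). *Wnt5b*, a noncanonical Wnt ligand, fell by 1.30 on the log2 scale and *Wnt5a* rose by 1.02. The lateral and extra-embryonic mesoderm factors *Foxf1*, at 56.6 and 49.97 CPM and then 0 and 5.66 CPM (-4.28, adjusted p = 0.000237), and *Hand1*, at 41.7 and 57.3 CPM and then 1.86 and 5.66 CPM (-3.77, adjusted p = 3.83e-05), fell as well. They are 2 of the 4 tested markers of lateral plate and intermediate mesoderm, whose summed level over 9 markers was 213 to 239 CPM in WT at E8.5 and 12.1 to 64.7 CPM at E9.5. Whether lateral cells or RNA add to the E8.5 level was not tested.

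Of 14 somite regulators tested, 7 rose and 0 fell, with a median log2 fold of 1.32 against 0.01 over all genes. *Twist1*, a bHLH factor of mesenchyme, was at 6.29 and 7.35 CPM at E8.5 and 156 and 201 CPM at E9.5 (4.54, SE 0.28, edgeR adjusted p = 4.81e-08), although WT B and C were at 78.1 and 50.2 CPM and their entry raised the adjusted p to 0.108. Its UMIs lay in 17 of 33 and 19 of 39 cells of WT A and D, with 43 of 168 and 59 of 249 UMIs in the highest cell. *Pax3*, a paired-box factor of the dermomyotome and of anterior presomitic mesoderm, was at 7.08 and 7.35 CPM and then 51.0 and 38.0 CPM (2.42, SE 0.35, adjusted p = 0.000569). *Meox1* was at 13.4 and 5.88 CPM and then 35.3 and 33.2 CPM (1.49), and *Foxc2* at 10.2 and 7.35 CPM and then 43.6 and 25.1 CPM (1.69). *Prrx1* (4.09), *Pax9* (4.65) and *Foxd1* (1.55) were the others. *Twist1* was called with each library left out in turn, whereas *Pax3*, *Meox1*, *Foxc2*, *Foxd1* and *Pax9* were each lost in at least 2 of those 4 tests.

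The core of the presomitic state did not pass the test of stage. Cells of both stages were labelled by expression, which limits how far these genes could differ. The log2 fold of E9.5 over E8.5 in WT was 0.34 (SE 0.18) for *Tbx6*, -0.29 (SE 0.44) for *Msgn1*, -0.11 (SE 0.34) for *Hes7*, 0.02 (SE 0.16) for *T* and -0.34 (SE 0.24) for *Dll1*. Of 12 presomitic markers only *Cited1*, a transcriptional coregulator, was called, at 758 and 1024 CPM and then 407 and 473 CPM (-1.19, SE 0.14, edgeR adjusted p = 0.000369). None of 13 Notch, 13 FGF, 17 STAT target and 30 cell cycle genes passed, with 2, 4, 4 and 4 at an unadjusted p under 0.05, against 1233 of all 7826 genes (15.8%). *Rdh10*, an enzyme of retinoic acid synthesis, was the 1 called gene of 8 in its list, at 0 and 1.47 CPM and then 9.28 and 11.3 CPM.

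Among the largest changes outside the lists just given, *Fabp7*, a fatty acid binding protein, was at 1.57 and 7.35 CPM at E8.5 and 146 and 86.6 CPM at E9.5 (log2 fold 4.76, edgeR adjusted p = 0.000109). *Tgfbi*, a matrix protein, and *Fuom*, a fucose mutarotase, had no UMI at E8.5 and were at 9.28 and 12.1 CPM and 9.28 and 8.90 CPM at E9.5. *Phlda2*, an imprinted growth regulator best known in placenta, was at 227 and 357 CPM and then 16.7 and 37.2 CPM (-3.56, SE 0.40, adjusted p = 0.0138). Of 31 imprinted genes tested, it was the 1 called lower, while 3 were called higher and the median log2 fold was 0.34. *Ptcra* and *Slc25a43* were the other large falls, but single cells held their E8.5 counts. In WT A and B 1 cell held every *Slc25a43* UMI (24 and 6), and 1 cell held 12 of 12 and 14 of 15 *Ptcra* UMIs.

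The null cells were read for the genes called in WT, using E8.5 null A and E9.5 null A and D, in which these genes had not been chosen. Null and WT cells of a stage were sorted from the same chimeras. Embryo, day and preparation may thus be shared, and the counts below are not an independent check. Of the 180 genes 169 moved in the WT direction in both E9.5 null libraries (93.9%), against 3957 of all 7826 genes tested (50.6%). For the genes higher at E9.5 it was 119 of 126 (94.4%) and for those lower 50 of 54 (92.6%). *Hoxd11* was at 33.4 CPM in null A at E8.5 and 558, 491, 579 and 555 CPM in null A to D at E9.5, and *Hoxc11* went from 1.05 CPM to 91.4, 110, 111 and 101 CPM. *Hoxc8* was at 209 CPM and then 112, 169, 120 and 171 CPM, and *Twist1* at 13.6 CPM and then 249, 111, 68.4 and 212 CPM. *Cdx2* was at 173 CPM and then 32.7, 108, 40.7 and 51.3 CPM, where null B kept the highest level. The 28 Hox genes tested between genotypes at E9.5 held no call, as given above. The E8.5 null side is a single library, so this is a count without a test.

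**Figure D5:**
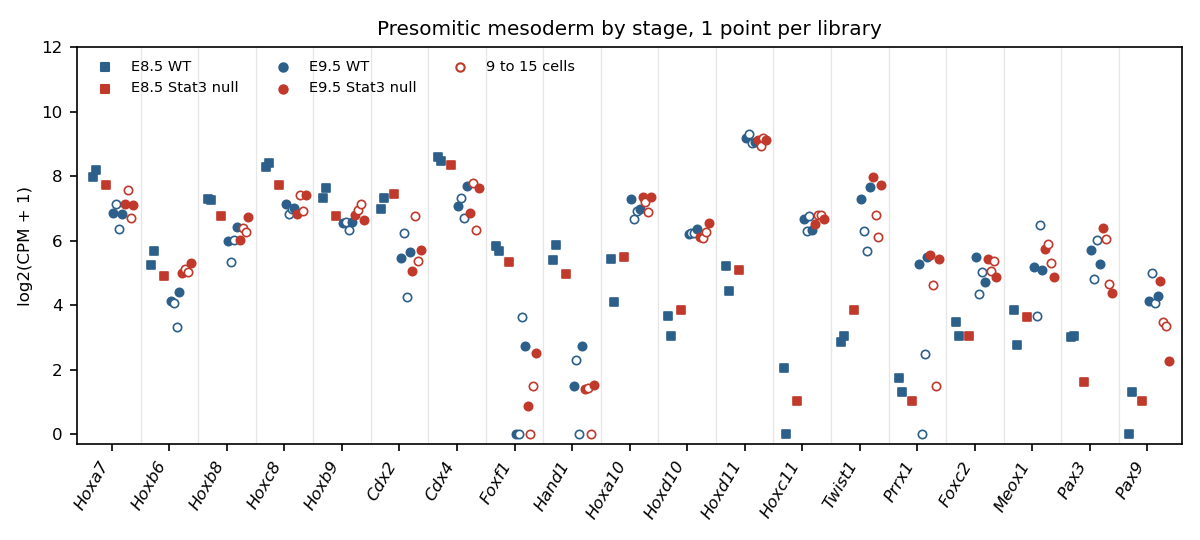
Levels of 19 genes in presomitic cells as log2(CPM + 1), E8.5 as squares and E9.5 as circles, null in red and WT in blue, 1 symbol per library, open for libraries with 9 to 15 cells. *Hoxd11* and *Twist1* are higher and *Hoxc8* and *Cdx2* mostly lower at E9.5 in both genotypes, with null and WT symbols side by side.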

How the data were processed

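Raw UMI counts per gene and cell, deposited by the authors without normalization, were used with the authors' table of cells. Per the labels and the methods of the study, reads were mapped to mm10 with CellRanger and counted with an annotation that included tdTomato, cells were kept within limits on UMIs, genes, mitochondrial and ribosomal RNA, doublets were called with scds, and types were transferred from an atlas. The authors left imprinted genes out of the mapping and also out of their tests of differential expression. Imprinted genes were tested here. The authors' table also gave a doublet call, a label score as a fraction of neighbours and an atlas stage. Of 192657 barcodes listed, 41832 were in the matrix, with 10003 to 99964 UMIs each. Doublets (3395) and WT singlets with a tdTomato UMI (596, 13 of them with either label) were set aside. The 16 libraries held 360 to 4327 cells and 20682659 to 138613245 UMIs, and 488 barcodes occurred in more than 1 library, 0 of them among the members. No column of sample values was left unmatched (0).

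UMIs were summed per library and label where more than 15 cells were present, after leaving out 8178 of 29453 genes (tdTomato, *Xist*, Tsix and the Y-linked, haemoglobin, ribosomal protein, mitochondrial and predicted genes), and tested with edgeR 4.0.16 in R 4.3.3 (filterByExpr, TMM, quasi-likelihood, Benjamini-Hochberg over all genes tested). Called genes had an adjusted p under 0.05 together with an absolute log2 fold over 1. CPM is scaled to 1000000 UMIs of the summed cells. Numbers of cells were tested alike for types with at least 20 cells at a stage. Alternatives were DESeq2 1.42.0, limma-voom (limma 3.58.1), no TMM, no filter, thinning to 10000 UMIs, the tdTomato rules and leaving out each library. The embryo pool that the study used as a block could not be assigned to libraries. The scripts were tested on simulated data. Named genes were those called, up to 10 in each direction with all null libraries beyond all WT libraries, called members of the gene lists, and preset regulators of the tissue; for stage, the 5 largest in each direction and called list members. *Scd2*, *Meis2*, *Lefty2*, *Hoxc11*, *Hoxc10*, *Hoxa11*, *Hoxd13*, *Hoxd1* and the genes of the added tests were named after their values were seen. Some genes that passed are not reported here. The members and gene lists were chosen with earlier results of these data known. Gene coordinates are GRCm38 (GENCODE M21).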

Additional observations from a re-analysis of the deposited data

Results flagged for a closer look

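In 60 groups of 4 libraries tested for a library far from the other 3 by Dixon's ratio, 6 stood out, where chance alone flags about 1 in 20 groups. All were presomitic values at E9.5, the only stage with 4 libraries of a genotype, so the stage follows from the design. The share of presomitic cells was 1.36% in null D. *Dll3* was high in null C (268 CPM), *Foxc1* low in null B (57.3 CPM) and *Msgn1* high in null D (18.99 CPM). Among WT libraries *Fgf8* was high in WT A (114 CPM) and *Grb10* in WT C (388 CPM).

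The null effect differed between E9.5 and E8.5 in presomitic mesoderm, by the edgeR interaction test on the log2 scale, for *Cwc22* (1.89), *Meis2* (1.32), *Nnat* (-1.50), *Rspo3* (-1.04), *Grb10* (-3.41) and *Scd2* (-0.95). It differed between paraxial and intermediate mesoderm at E7.5 for *Lefty2* (1.76), *Myl7* (-1.43), *Hoxb1* (0.75) and *Meox1* (1.27), between paraxial and lateral plate mesoderm for *Cst3* (-0.997), and between presomitic mesoderm and posterior somitic tissues at E9.5 for *Grb10* (-2.40) and *Sparcl1* (-0.98). By DESeq2 the difference of *Cst3* and that of *Sparcl1* had an adjusted p under 0.05, and the other 11 did not.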

How the results depend on the processing

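No paired analysis was possible because neither embryo pools nor replicate numbers can be read from the library names. Not run were the minimum of over 50 cells, the comparison of the null effect between presomitic and paraxial cells, which share no library with over 15 cells of each, and the stage interaction without E8.5 null A, which would leave no null library there. Fits with an arm of 1 library assume that it varies like the other groups. For presomitic cells, fits with a library left out held the remaining E8.5 and E9.5 libraries of both genotypes. At E9.5 and for stage they therefore differ from the main test by more than the library left out. The causes of the changes below were not tested.

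The 15 genes called in paraxial cells became 43 without the filter on low counts and 17 to 47 with a library left out (25 without null A, 47 without WT A). The 6 called in presomitic cells at E9.5 became 34 without the filter, 3 with thinned cells and 12 to 26 with a library left out, the 6 genes being kept in each of the latter. The 180 genes of stage became 69 by DESeq2 (67 shared), 274 without the filter and 77 to 220 with a library left out (78 without E8.5 WT A, 77 without E8.5 WT B). The 6 genes of the stage interaction became 1 by DESeq2, 18 without the filter and 0 (without E8.5 WT A) to 17 (without E9.5 WT A), with 432 at an unadjusted p under 0.05 where edgeR called 0. The 8 genes of the averaged fit became 5 by DESeq2 and 5 to 9 with a library left out (5 without E8.5 WT B or E9.5 null A). The log2 fold of the presomitic share at E9.5 ran from -0.10 (without null D) to 0.50, and was -0.05 without WT B. The difference in presomitic share of both labels ran from -0.445 (without null B) to 6.13 points at E7.5, -2.44 (without WT B) to 6.45 at E8.5 and -3.07 (without WT D) to 18.997 at E9.5. Of the single-gene values under each alternative 467 kept their call and 122 lost it, with no change of direction. Differences in atlas stage became 0 with medians in all 3 cases. Depth limits the presomitic cells, with 9 to 46 cells in each library tested, and *Stat3*, at 18 or fewer UMIs a group.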
